A study of Mus musculus with 2 samples.

Results

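The genes described here are 8 markers of border-associated macrophages, namely Mrc1, Cd163, Lyve1, F13a1, Pf4, Cbr2, Ms4a7 and Stab1. They were chosen by symbol from the 19070 genes counted, and all 8 were found in both sections. Expression was measured with Visium HD, which counts unique molecular identifiers (UMIs, 1 per captured probe) in a grid of 16 µm bins. There were 2 coronal brain sections of 10 µm, 1 from a male C57Bl6 mouse 3 days and 1 from another 28 days after controlled cortical impact (CCI), both listed as 3 months old. The impact was 2 mm deep and was made by a piston 3 mm wide above the parietal lobe on 1 side, after a bone flap had been removed. Both mice received the impact and no sham section was analysed here, so the side of each section opposite to the impact is the only reference. Each group is 1 section, so no test between animals or between the 2 times was possible, and the values of the 2 times are given side by side.

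Border-associated macrophages live in the meninges, in the perivascular spaces of arteries and veins and in the stroma of the choroid plexus, outside the brain tissue that microglia occupy. They take up debris and blood-borne molecules and are told apart from microglia by scavenger receptors and related surface proteins. Mrc1 encodes the mannose receptor, Cd163 the haemoglobin-haptoglobin scavenger receptor, Stab1 the scavenger receptor stabilin-1 and Lyve1 a hyaluronan receptor that lymphatic endothelium also makes. F13a1 encodes the A subunit of coagulation factor XIII and Pf4 the chemokine platelet factor 4, both also products of platelets and their precursors. Cbr2 encodes a carbonyl reductase and Ms4a7 a membrane protein of the MS4A family found in several macrophage populations.

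On build GRCm38 the scavenger and hyaluronan receptor genes lie apart, with Mrc1 at chr2:14229392-14332057 on the plus strand, Cd163 at chr6:124304656-124330527 on the plus strand, Stab1 at chr14:31139013-31168641 on the minus strand and Lyve1 at chr7:110850607-110863239 on the minus strand. F13a1 lies at chr13:36867178-37050244 on the minus strand, Pf4 at chr5:90772435-90773383 on the plus strand, Cbr2 at chr11:120729489-120732114 on the minus strand and Ms4a7 at chr19:11321039-11336146 on the minus strand. RefSeq promoters of 300 bases, from 250 before to 50 after a start, were at hand for 7 of the 8 genes, 9 promoters in all, since F13a1 and Ms4a7 each had 2. The letters GAGGAA, which occur in the binding motif of the myeloid factor PU.1, or their reverse complement TTCCTC were present in 7 of these 9 promoters, those of Mrc1, F13a1, Pf4, Cbr2 and Stab1 and 1 of the 2 of Ms4a7, and in 28.3% of all 32851 promoters. The letters TGCTGA, a half-site of MAF factors, or their reverse complement TCAGCA were present in 2 of the 9 (Cbr2 and Stab1) and in 19.5% of all promoters. A match of letters is a description and not evidence of binding. The promoters of Mrc1 and Ms4a7 are shown, because these genes differed most in the share of their UMIs in the lesion zone at 28 days, at chr2:14229164-14229463 on the plus strand and at chr19:11336097-11336396 on the minus strand, with GAGGAA or TTCCTC in capitals. The other Ms4a7 promoter, at chr19:11334646-11334945, held 0 matches and is not shown.
Mrc1: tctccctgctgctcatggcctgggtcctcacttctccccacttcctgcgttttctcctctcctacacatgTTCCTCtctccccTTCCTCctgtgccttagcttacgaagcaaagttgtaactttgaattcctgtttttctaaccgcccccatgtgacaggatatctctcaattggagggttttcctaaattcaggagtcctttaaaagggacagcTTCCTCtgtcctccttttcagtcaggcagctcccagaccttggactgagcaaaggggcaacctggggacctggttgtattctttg
Ms4a7: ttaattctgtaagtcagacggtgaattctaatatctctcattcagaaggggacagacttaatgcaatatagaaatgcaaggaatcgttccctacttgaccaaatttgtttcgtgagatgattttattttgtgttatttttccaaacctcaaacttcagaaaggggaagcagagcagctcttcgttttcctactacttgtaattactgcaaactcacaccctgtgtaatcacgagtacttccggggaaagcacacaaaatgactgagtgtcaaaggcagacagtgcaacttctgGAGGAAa

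The 3 days section held 121967 bins with 120615873 UMIs and the 28 days section 105589 bins with 82422389 UMIs. Bins with at least 100 UMIs were kept, which left 119617 and 103316. The injured side was the array side below column 130 at 3 days and below column 240 at 28 days. Its 6 phagocyte genes (Cd68, Lyz2, Ctsz, Lgals3, Cd52 and Laptm5) stood at 338 CPM (UMIs of a gene per 1e6 UMIs of an area) against 92.9 CPM across the boundary at 3 days, and at 603 against 81.5 CPM in the other section. The array edge cut both sections, with 306 of 347 tissue bins on the edge lying on the injured side at 3 days and 122 of 510 at 28 days. At 28 days the margin of the lesion cavity counted as tissue border where it opened to the outside. The amount of cortex missing was not measured. Ratios are log2 ratios of CPM between areas of 1 section, with exact 95% intervals that cover counting error only. Neighbouring bins are not independent samples, so these intervals leave out the spread between animals and are too narrow for it. A lower level in an area may come from fewer cells or from less RNA in each cell, which cannot be told apart in bins.

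The 8 genes were sparse. Together they had 3765 UMIs at 3 days, which is 31.2 CPM, and 2157 UMIs at 28 days, which is 26.2 CPM. Only 2919 and 1788 of the kept bins held 1 or more of these UMIs. Stab1 had the most, with 1488 at 3 days and 785 at 28 days, followed by Mrc1 with 836 and 494. Lyve1 had the fewest, with 110 and 36. The map of member UMIs shows them along the outer surface of the brain, in clusters and lines inside the tissue, and within the lesion on the injured side.

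**Figure D1:**
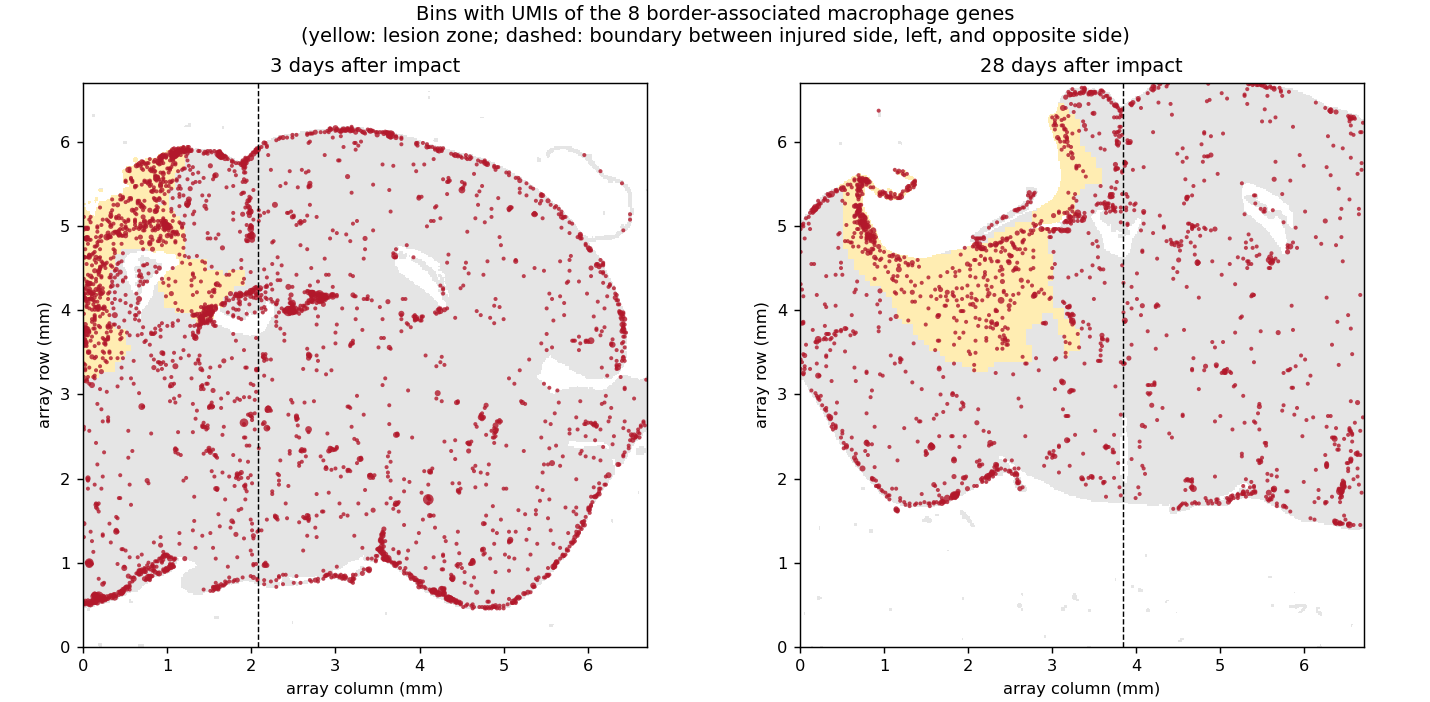
Each dot is a 16 µm bin with at least 1 UMI of the 8 genes, larger for more UMIs, on the array of each section in mm; grey is tissue, yellow the lesion zone placed by the 6 phagocyte genes, and the dashed line the boundary between the injured side (left) and the opposite side. Dots trace the outer surface in both sections and are scattered through the lesion zone, which held 675 of 2919 such bins at 3 days and 541 of 1788 at 28 days.

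The tissue border was first examined on the opposite side, away from the injury. Near bins lay within 96 µm of the outer border and far bins more than 24 bins of 16 µm from it. All 8 genes were higher near the border. The summed level at 3 days was 191 CPM near the border and 16.03 CPM far from it, a log2 ratio of 3.57 (3.43 to 3.72), which is 11.9-fold. At 28 days it was 195 and 11.7 CPM, a ratio of 4.07 (3.77 to 4.35). At 3 days 8 of 8 genes were at least 2-fold higher near the border, against 15.1% of the 14745 genes with at least 20 UMIs, and at 28 days this held for 6 of the 6 members with 20 UMIs, against 17.6% of 14020 genes. The median ratio of the members with 20 UMIs was 3.92 at both times, against -0.03 over all such genes at both times.

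Among the receptors, Mrc1 had 57.3 CPM near and 3.92 CPM far at 3 days (ratio 3.87, 3.59 to 4.15) and 89.6 and 2.12 CPM at 28 days (5.4, 4.88 to 5.93). Cd163 had 21.6 and 0.949 CPM at 3 days (4.51, 3.99 to 5.04) and 14.7 and 1.09 CPM at 28 days, where 11 UMIs lay in the near band. Stab1 was the least concentrated at the border in both sections, with ratios of 2.74 (2.46 to 3.02) and 2.92 (2.29 to 3.48), with 6.30 and 5.36 CPM in far bins. At 3 days the Stab1 interval overlapped that of F13a1 alone among the other 7 genes, and at 28 days it lay below that of Mrc1 and overlapped the rest. Lyve1 had 29 UMIs near and 29 far at 3 days, a ratio of 3.97 (3.18 to 4.77), and only 3 and 8 UMIs at 28 days, below the minimum of 20.

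The secreted factors and the remaining genes were also higher near the border. Pf4 had 17.7 CPM near and 0.770 CPM far at 3 days (4.52, 3.94 to 5.12) and 10.7 and 0.670 CPM at 28 days (4.05, 2.60 to 5.26). F13a1 had ratios of 3.34 (2.89 to 3.78) and 3.74 (2.62 to 4.68). Ms4a7 had ratios of 4.14 (3.41 to 4.89), from 35 and 31 UMIs, and 4.64 (3.22 to 5.92), from 9 and 14 UMIs. Cbr2 had 13.8 and 1.04 CPM at 3 days (3.73, 3.15 to 4.30) and 6 and 12 UMIs at 28 days, again below the minimum.

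Other cell types of the border moved with these genes. Fibroblast genes (Dcn, Lum, Col1a1, Col1a2, Col3a1, Ogn and Slc47a1) stood at 1517 against 44.1 CPM at 3 days and 1922 against 45.7 CPM at 28 days, with 7 of 7 at least 2-fold higher in both sections. Smooth muscle genes (Acta2, Myh11 and Tagln) stood at 951 against 56.5 and 1546 against 59.9 CPM. Monocyte genes stood at 13.2 against 0.931 CPM and 18.7 against 0.776 CPM, and lesion macrophage genes at 186 against 23.6 CPM and 319.7 against 21.2 CPM, with Spp1 holding 607 of 663 and 228 of 239 of the latter's UMIs near the border. The part of these cells in the result was not tested. Microglia genes (Tmem119, P2ry12, Siglech, Gpr34 and Sall1) differed far less, at 170 against 83.1 CPM and 206 against 81.8 CPM, with 1 of 5 and 3 of 5 at least 2-fold higher.

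On the injured side the near bins were again higher in all 8 genes. The summed level was 405 CPM near and 31.2 CPM far at 3 days (3.70, 3.53 to 3.87) and 186 and 24.8 CPM at 28 days (2.91, 2.73 to 3.09). At 3 days 8 of 8 genes were at least 2-fold higher near the border, against 17.5% of all genes with 20 UMIs, and at 28 days 7 of the 7 members with 20 UMIs, against 19% of genes. Lyve1, with 20 and 14 UMIs, reached 5.10 (4.05 to 6.21) at 3 days, and Cbr2, with 28 and 8 UMIs, 4.47 (3.36 to 5.88) at 28 days. Stab1 was below the other members with 20 UMIs at both times, at 3.05 (2.75 to 3.33) and 2.10 (1.79 to 2.41), though its intervals overlapped those of some of them.

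The border bands of the 2 sides were then compared with each other. At 3 days the injured side's band stood at 405 CPM and the opposite band at 191 CPM, a ratio of 1.09 (0.91 to 1.26), and 5 of 8 genes were at least 2-fold higher, against 9.35% of all genes. Cd163 had 24.5 and 21.6 CPM (0.20, -0.51 to 0.83) and Stab1 120 and 42.1 CPM (1.51, 1.16 to 1.86), and the Cd163 interval overlapped those of the other 6 genes. The dorsal part of the bands held the 8 genes at 565 against 181 CPM and the ventral part at 309 against 198 CPM. With the lesion zone left out of the band the summed ratio at 3 days was 0.92 (0.72 to 1.11), and 2 of 8 genes were at least 2-fold higher, against 7.67% of all genes. These were Cbr2 at 1.59 (0.92 to 2.23) and Stab1 at 1.11 (0.69 to 1.50), while Cd163 (-0.04), Lyve1 (0.79), Pf4 (0.71) and Ms4a7 (0.83) had intervals that included 0. Other cell types differed between the bands too, with fibroblast genes at 3991 against 1517 CPM, smooth muscle genes at 2297 against 951 CPM, MHC class II genes at 1307 against 587 CPM and lesion macrophage genes at 1277 against 186 CPM. The part of these cells in the result was not tested. At 28 days the bands stood at 186 and 195 CPM, a ratio of -0.07 (-0.33 to 0.21), but per area they held 546 and 403 UMIs per mm2, which gave 0.44 (0.17 to 0.71) for UMIs per bin. The dorsal part of the bands had 165 against 211 CPM and the ventral part 255.5 against 186 CPM. In CPM, 1 of the 7 members with 20 UMIs was at least 2-fold higher, against 9.19% of all genes. That gene was Ms4a7, at 44.7 against 12.0 CPM (1.82, 0.93 to 3.05). Mrc1 was lower in the injured side's band, at 49.0 against 89.6 CPM (-0.88, -1.30 to -0.43), and its interval for UMIs per bin included 0 (-0.37, -0.79 to 0.07). In the band outside the lesion zone both intervals included 0, with Mrc1 at -0.21 (-0.65 to 0.24) and Ms4a7 at -0.33 (-1.56 to 1.06), and 0 of the 7 members with 20 UMIs were at least 2-fold higher, against 5.37% of all genes. Smooth muscle genes were lower in the injured side's whole band as well, at 731 against 1546 CPM. So were pericyte genes at 362 against 868 CPM and MHC class II genes at 783 against 1457 CPM. Lesion macrophage genes were higher in the whole band, at 2363 against 320 CPM. In the band outside the lesion zone they were lower, at 144 against 320 CPM (-1.15, -1.41 to -0.88), though Gpnmb among them was higher (2.21, 0.75 to 4.76). Fibroblast genes outside the zone stood at 1144 against 1922 CPM. The injured side's band at 28 days also held choroid plexus genes at 1696 CPM, against 181 CPM far from the border, and the part of these cells and of this tissue in the result was not tested.

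The profile by distance was steep on the opposite side. Counted in bins of 16 µm from the border, the summed level at 3 days was 294 CPM up to 3 bins, 104 CPM from there to 6 bins, 13.7 CPM to 12 bins and 7.92 CPM to 24 bins, and it was 18.5 CPM beyond 48 bins. At 28 days the same bands held 298, 142, 14.6 and 8.83 CPM, and 13.3 CPM beyond 48 bins. The injured side had a shallower profile at 3 days, with 474, 358, 112 and 53.2 CPM. At 28 days it had 195, 178, 40.2 and 30.5 CPM. The injured side's bands included bins of the lesion zone, and its border ratios without that zone are given with the alternatives below. Mrc1 alone on the opposite side at 3 days stood at 91.1, 28.9, 2.73 and 1.97 CPM in these 4 bands.

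**Figure D2:**
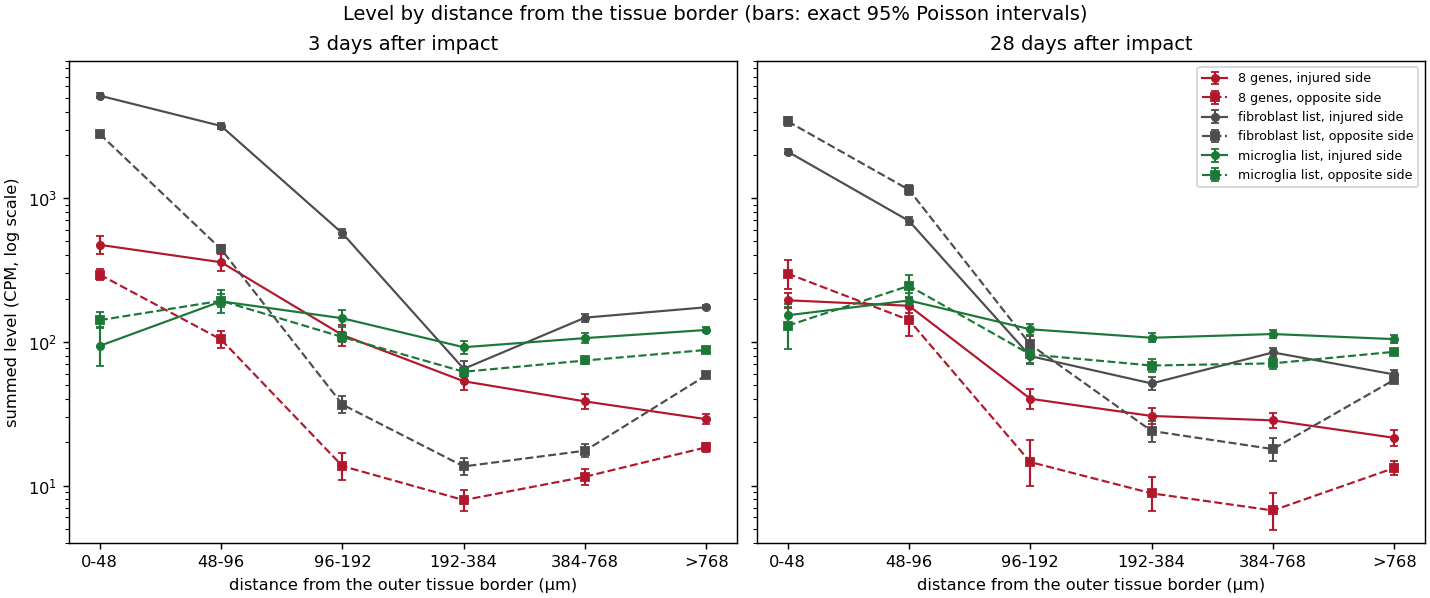
Summed level in CPM (log axis) by distance from the outer tissue border in µm, for the 8 genes (red), fibroblast genes (grey) and microglia genes (green) on the injured (solid) and opposite (dashed) side; points are sums over a band and bars exact 95% Poisson intervals. On the opposite side the 8 genes stood at 294 CPM at 3 days and 298 CPM at 28 days within 48 µm, and at 13.7 and 14.6 CPM in the third band. The injured side's bands included bins of the lesion zone.

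Vessels inside the tissue were marked by bins with at least 3 UMIs of the smooth muscle genes, which label the walls of arteries and of other larger vessels. More than 96 µm from the border, bins within 24 µm of such a bin held the 8 genes at 159 CPM at 3 days, against 14.2 CPM in bins more than 96 µm from any (3.49, 3.35 to 3.63). At 28 days they held 147 against 13.5 CPM (3.44, 3.25 to 3.63). All 8 of 8 genes were at least 2-fold higher in both sections, against 17.7% of all genes at 3 days and 11.4% at 28 days. The level was highest in the smooth muscle bin itself, 274 CPM at 3 days and 319 CPM at 28 days, and was 51.5 and 26.6 CPM from 24 to 48 µm away.

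Beside smooth muscle the value of Cd163 was above those of the other 7 genes in both sections, though its interval overlapped several of theirs, at 4.29 (3.70 to 4.87) from 47 and 56 UMIs at 3 days and 4.84 (4.22 to 5.46) from 45 and 47 UMIs at 28 days. Mrc1 followed at 4.11 (3.82 to 4.39) at 3 days, with 44.7 against 2.60 CPM, and was at 4.45 (4.05 to 4.84) at 28 days, with 43.9 against 2.02 CPM. Stab1 was lower, at 2.87 (2.63 to 3.10) and 2.88 (2.54 to 3.19). Ms4a7 was at 3.25 (2.47 to 3.95) at 3 days, but at 28 days it had 4.21 against 2.05 CPM, a ratio of 1.11 whose interval of -0.12 to 2.01 includes 0. The interval of Lyve1 at 28 days, from 3 and 19 UMIs, also includes 0 (2.42, -0.16 to 4.0). For Ms4a7 at 28 days, the bins far from smooth muscle included bins of the lesion zone, where most of its UMIs lay, as given below. Fibroblast genes stood at 823 against 37.2 CPM and 611 against 30.0 CPM in the same areas. Lesion macrophage genes stood at 345 against 34.1 CPM at 3 days but 138.8 against 235 CPM at 28 days, monocyte genes at 16.1 against 1.77 CPM and 2.80 against 1.10 CPM, and MHC class II genes at 238 against 28.5 CPM and 205 against 55.2 CPM. The part of these cells was not tested. Microglia genes stood at 132 against 88.3 CPM at 3 days and 130 against 91.2 CPM at 28 days.

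Endothelial bins, with at least 3 UMIs over Cldn5, Pecam1, Cdh5, Flt1 and Slco1a4, mark capillaries as well as larger vessels. The summed ratio beside them was 2.31 (2.14 to 2.48) at 3 days, from 64.7 and 13.1 CPM, and 1.68 (1.46 to 1.89) at 28 days, from 47.9 and 15.0 CPM. Both intervals lay below those beside smooth muscle. At 3 days 8 of 8 genes were at least 2-fold higher, against 7.02% of all genes. At 28 days 6 of the 7 members with 20 UMIs were, against 4.47%, the exception being Ms4a7 at 0.98 (0.16 to 1.69). Here too the far bins included bins of the lesion zone, where most Ms4a7 UMIs lay at 28 days.

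In CPM the choroid plexus gave smaller differences of the 8 genes summed. Bins within 24 µm of choroid plexus bins held the 8 genes at 49.1 against 21.2 CPM at 3 days (1.21, 0.96 to 1.45), and 37.8 CPM compared with 17.6 CPM in the later section (1.11, 0.67 to 1.50). At 3 days 6 of 8 genes were at least 2-fold higher, against 22.7% of all genes, and at 28 days 4 of 8, against 19.5%. Of these, the intervals of Pf4 and Cbr2 at 3 days and of Cd163, Lyve1 and Pf4 at 28 days included 0. Mrc1 was higher in both sections, by 1.74 (1.22 to 2.20) and 2.36 (1.63 to 2.97), and Ms4a7 at 3 days by 2.48 (1.58 to 3.20). At 28 days Ms4a7 was at 0.92 (-0.85 to 2.04), from 5 and 161 UMIs. The bins far from the choroid plexus included bins of the lesion zone at both times, and most Ms4a7 UMIs lay in that zone at 28 days. Cbr2 had 0 UMIs beside the choroid plexus at 28 days. Per area the 8 genes held 280 against 84.9 UMIs per mm2 beside it at 3 days and 166 against 55.0 at 28 days. MHC class II genes (H2-Aa, H2-Ab1, H2-Eb1 and Cd74) stood there at 688 against 27.5 CPM and 329 against 56.1 CPM. Fibroblast genes stood at 690.1 against 51.0 CPM and 415 against 41.9 CPM, and the part of these cells was not tested.

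The side of the injury was compared over all kept bins. The border band held 4.36% of these bins on the injured side and 6.44% on the opposite side at 3 days. At 28 days it held 8.19% and 2.63%. Ratios for bins outside this band are given with the alternatives below. At 3 days the 8 genes summed to 52.4 CPM on the injured and 21.6 CPM on the opposite side, a ratio of 1.28 (1.18 to 1.37), and to 40.1 and 14.8 CPM at 28 days, a ratio of 1.43 (1.30 to 1.57). At 3 days 4 of 8 genes were at least 2-fold higher on the injured side, against 10.5% of all genes with 20 UMIs, and at 28 days 6 of 8, against 6.43%. The median of the members was 1.02 and 1.16, and that of all genes 0.14 and 0.04.

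At 3 days Pf4 (1.82, 1.49 to 2.17), Ms4a7 (1.77, 1.34 to 2.22), Stab1 (1.70, 1.55 to 1.86) and F13a1 (1.08, 0.79 to 1.38) were at least 2-fold higher. Cbr2 was at 0.95 (0.55 to 1.35) and Mrc1 at 0.75 (0.55 to 0.95), with 9.64 against 5.72 CPM. The intervals of Cd163 (0.33, -0.08 to 0.72) and Lyve1 (0.51, -0.09 to 1.08) included 0. At 28 days Ms4a7 stood apart, with 288 UMIs on the injured side and 29 on the opposite side (7.76 and 0.642 CPM, ratio 3.57, 3.04 to 4.20). The other 7 genes lay between 0.60 and 1.27, and of these the Lyve1 interval alone included 0 (-0.42 to 1.65, from 20 and 16 UMIs).

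Much of the side difference of the 8 genes summed lay in the lesion zone, which covered 7679 bins at 3 days and 13490 bins at 28 days. At 28 days most UMIs of the 8 genes in the zone were those of Ms4a7 and Stab1, so the summed value there rests mainly on them. Their shares are given below. Mrc1 and Cd163 were then no higher in the zone than on the rest of the injured side beyond counting error, as given below. The zone was drawn from phagocyte genes, so macrophage genes are high in it by construction and its values are a description. At 3 days the 8 genes had 189 CPM in the zone and 33.6 CPM on the rest of the injured side, and at 28 days 91.2 and 27.9 CPM. The rest of the injured side was 0.64 (0.53 to 0.74) above the opposite side at 3 days and 0.91 (0.76 to 1.06) above it at 28 days. Outside the zone 0 of 8 genes were at least 2-fold higher than on the opposite side at 3 days, against 6.76% of all genes, and 5 of 8 at 28 days, against 1.89%, with Mrc1 at 1.19 (0.91 to 1.48) and Ms4a7 at 1.19 (0.48 to 1.92). Cd163 outside the zone at 3 days was at -0.01 (-0.48 to 0.43). The border band's share of bins differed between the sides, as given above, and its part in the values outside the zone was not tested.

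The members fell into different ranges inside the zone. At 3 days Pf4 (4.16, 3.78 to 4.55), Ms4a7 (3.98, 3.47 to 4.48) and Stab1 (3.83, 3.65 to 4.01) exceeded the opposite side most, with F13a1 at 2.78 (2.36 to 3.16). Mrc1 (1.59, 1.22 to 1.93), Lyve1, Cd163 and Cbr2 lay between 1.59 and 1.90. Compared with the rest of the injured side at 3 days, Stab1 had 103 against 12.7 CPM and Mrc1 17.2 against 8.60 CPM. At 28 days Ms4a7 had 34.1 CPM in the zone, against 0.642 CPM (5.71, 5.17 to 6.34) and Stab1 36.5 and 5.82 CPM (2.65, 2.40 to 2.90), while the other 6 genes lay between 1.12 and 1.61. Against the rest of the injured side at 28 days, Mrc1 was at 0.06 (-0.37 to 0.45) and Cd163 at 0.20 (-0.60 to 0.88), and Ms4a7 was at 4.52 (4.07 to 5.04). The zone held fewer UMIs per bin than the opposite side, with medians of 498 and 871 at 3 days and 398 and 657 at 28 days. Ratios to the opposite side for UMIs per bin are therefore lower than these CPM ratios. Those of Ms4a7 and Mrc1 at 28 days are given with the alternatives below.

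**Figure D3:**
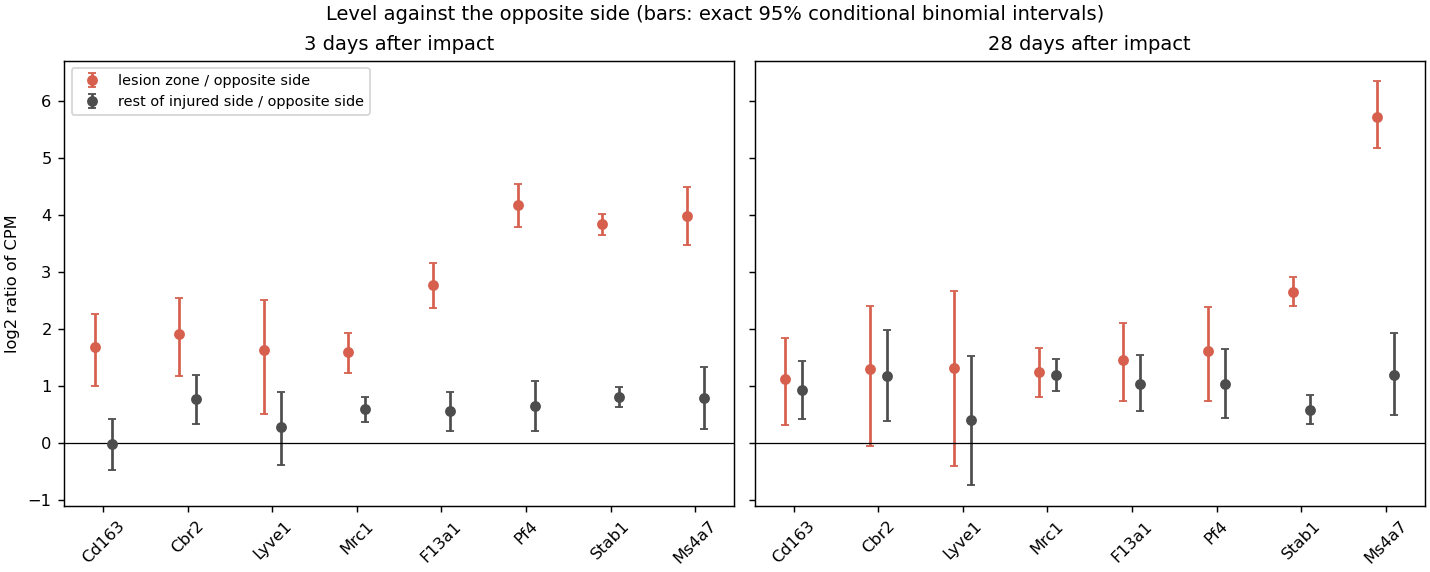
Log2 ratio of CPM of each gene in the lesion zone (red) and on the rest of the injured side (grey) over the opposite side, at 3 days (left) and 28 days (right); bars are exact 95% conditional binomial intervals. Pf4, Stab1 and Ms4a7 lay between 3.83 and 4.16 in the zone at 3 days, and at 28 days Ms4a7 was at 5.71 and Stab1 at 2.65. The zone held fewer UMIs per bin than the opposite side, so its ratios for UMIs per bin are lower.

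Other cells of the lesion moved with these values. Monocyte genes (Ccr2, Plac8 and Chil3) stood at 49.5 CPM in the zone at 3 days, against 1.40 CPM for the opposite side, and at 14.1 and 1.02 CPM in the later section. Lesion macrophage genes (Arg1, Msr1, Gpnmb and Spp1) stood at 1379.6 against 25.8 CPM and 3228 against 22.8 CPM, and microglia genes at 198 against 84.3 CPM and 229 against 82.3 CPM. Platelet genes (Ppbp, Itga2b, Gp9 and Gp1bb), which bear on Pf4 and F13a1, stood at 38.9 against 7.60 CPM at 3 days and 9.37 against 6.55 CPM at 28 days. Of these Ppbp had 92 UMIs in the zone and 3 opposite it at 3 days, and 0 and 2 UMIs at 28 days. Itga2b, the platelet integrin alpha IIb, was higher in the zone in both sections, at 2.17 (1.68 to 2.62) and 1.72 (1.14 to 2.27), and Pf4 at 28 days was at 1.61 (0.74 to 2.39). Gp9 and Gp1bb, the rest of the platelet list, are not given singly, so a rise of the whole list at 28 days cannot be read from Itga2b. Red blood cell genes stood at 119 against 2.23 CPM at 3 days and 1.96 against 1.48 CPM at 28 days. The part of these cells in the result was not tested.

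The share of each gene's UMIs by place shows the same split. At 3 days the border band outside the zone held 36.1% of Mrc1, 40.4% of Cd163, 37.3% of Lyve1 and 39.7% of Cbr2 UMIs, but 15.4% of Stab1 UMIs, and it held 3.68% of all UMIs. The zone held 37.7% of Pf4, 33.9% of Ms4a7 and 31.5% of Stab1 UMIs at 3 days, between 9.33% and 11.1% of Mrc1, Cd163, Lyve1 and Cbr2 UMIs, and 3.77% of all UMIs. At 28 days the zone held 77.0% (71.9 to 81.5) of Ms4a7 UMIs, 33.2% (30.0 to 36.7) of Stab1 UMIs and 12.96% (10.1 to 16.2) of Mrc1 UMIs, and 8.69% of all UMIs. The border band outside the zone held 39.3% (34.9 to 43.7) of Mrc1 and 7.89% (5.17 to 11.4) of Ms4a7 UMIs at 28 days. These intervals are Clopper-Pearson.

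**Figure D4:**
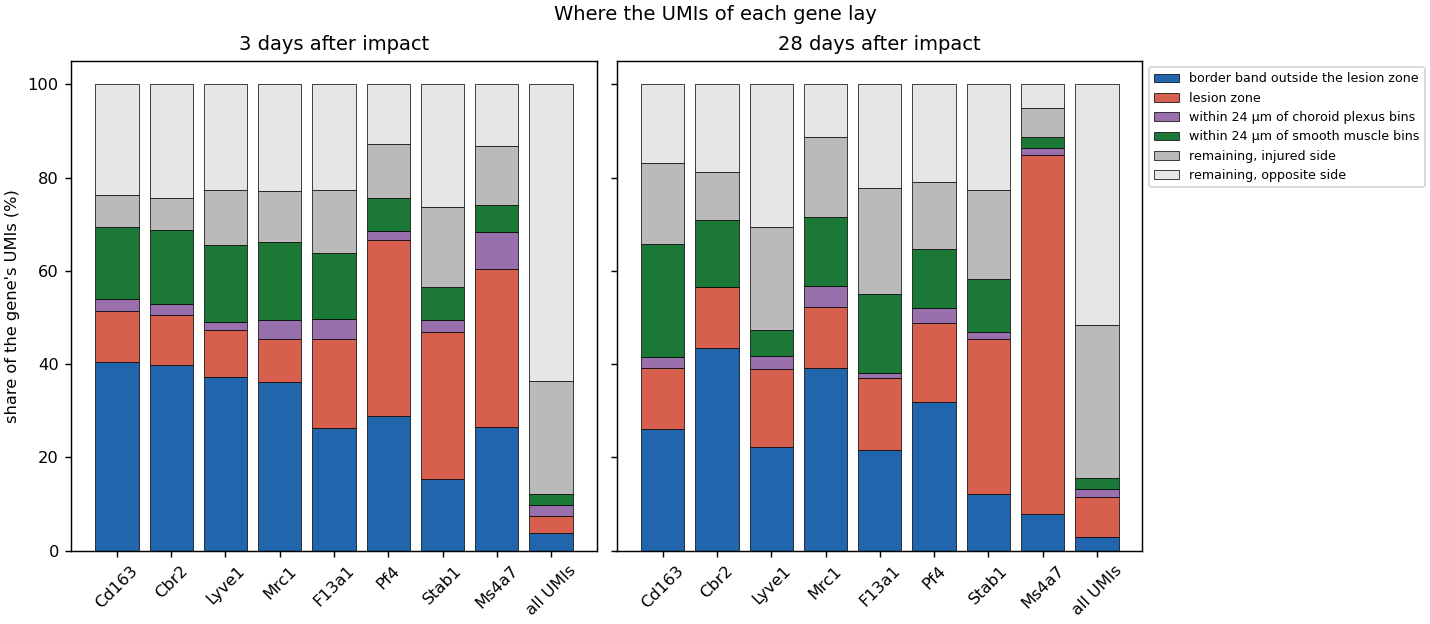
Share of each gene's UMIs (percent) in 6 places that do not overlap, at 3 days (left) and 28 days (right), with all UMIs as the last bar. At 28 days 77.0% of Ms4a7 UMIs and 12.96% of Mrc1 UMIs lay in the lesion zone.

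Mrc1 and Ms4a7 are mapped together because of this difference in share. On the opposite side at 28 days Mrc1 had 171 UMIs and Ms4a7 29, and both were higher near the border, as given above. On the injured side at 28 days Mrc1 had 259 UMIs outside the zone and 64 in it, and Ms4a7 had 44 outside and 244 in it.

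**Figure D5:**
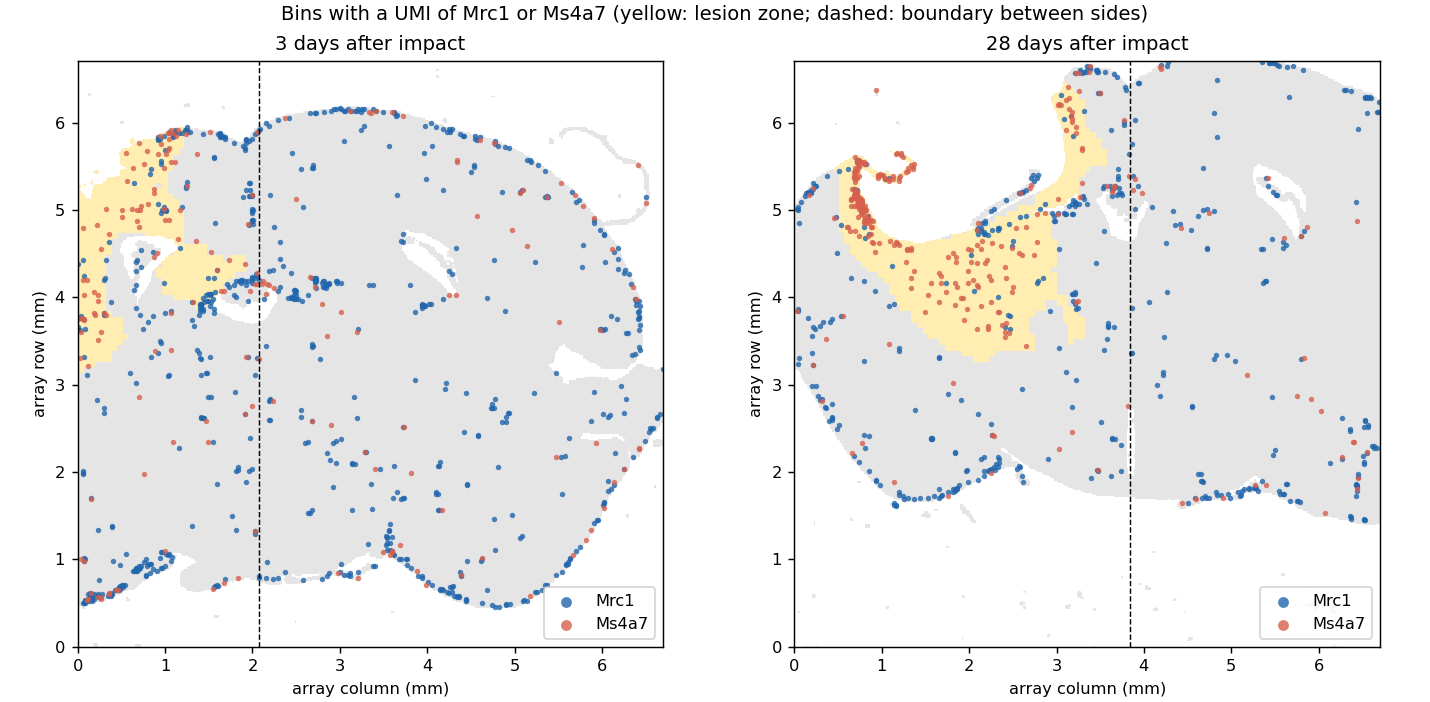
Bins with a UMI of Mrc1 (blue) or Ms4a7 (red) on the array of each section in mm, with the lesion zone in yellow and the boundary between the sides dashed. At 28 days 244 of 317 Ms4a7 UMIs lay in the zone, against 64 of 494 Mrc1 UMIs.

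UMIs of different members fell in the same bins. On the opposite side 183 bins at 3 days and 53 at 28 days held at least 2 members, and on the injured side 207 and 130 did. Of these bins 42.1%, 30.2%, 34.8% and 43.8% lay in the border band, which held 6.44%, 2.63%, 4.36% and 8.19% of all bins of those sides and sections. Places overlapped, and 52, 22, 112 and 40 of the bins, in the same order, lay within 24 µm of a smooth muscle bin, while 81 and 45 of those on the injured side lay in the lesion zone. In bins with an Mrc1 UMI on the opposite side, the other 7 genes stood at 491 CPM at 3 days, against 13.7 CPM in bins without (5.17, 4.94 to 5.39). The values at 28 days were 408 and 9.97 CPM (5.37, 4.90 to 5.78). Microglia genes in the same bins stood at 177 against 83.8 CPM at 3 days and 163 against 82.1 CPM at 28 days. In bins with an Ms4a7 UMI on the injured side at 28 days, the other 7 genes were at 149 against 31.2 CPM (2.27, 1.82 to 2.66), the lesion macrophage genes at 8308 against 576 CPM (3.85, 3.79 to 3.91) and the microglia genes at 216 against 111 CPM (0.97, 0.61 to 1.29). In Mrc1 bins of that side and time the lesion macrophage genes were at 1266 against 643 CPM (0.98, 0.81 to 1.14). Stab1 bins held more microglia UMIs in every side and section, with ratios of 1.35 (1.07 to 1.60) and 1.47 (1.01 to 1.87) on the opposite side at 3 and 28 days. Mrc1 bins of the opposite side held more of them as well, as given above, so this was not particular to Stab1.

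The genes most like the 8 were ranked by their ratio in bins with at least 2 members over all other bins of a side, taking the lower of the 2 sections, among genes with at least 20 UMIs inside such bins in both sections, so that genes with few UMIs were not ranked. On the opposite side, of 216 genes ranked, the first 10 were Aldh1a2, Dab2, Ptgds, Igf2, Cd74, Mgp, Slc6a20a, Myh11, Tagln and Tpm2. Aldh1a2, a retinoic acid synthesis enzyme, had ratios of 5.06 at 3 days and 4.76 at 28 days, and Dab2, an endocytic adaptor, 4.43 and 4.51. Cd74, the MHC class II invariant chain, had 4.10 and 4.93. Myh11 and Tagln, smooth muscle genes, had 3.91 and 4.92, and 3.76 and 4.96. On the injured side, of 1490 genes ranked, the first 10 were Aldh1a2, Anpep, Myoc, Col3a1, Fmod, Lyz2, Slc6a20a, Serping1, Cp and Dcn. Lyz2, which was also used to place the lesion zone, had 3.76 and 3.35 there. The ranking rests on 53 to 207 such bins in each side and section and carries no test.

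A further 15 genes known from border-associated macrophages were counted as a list. Near the border on the opposite side at 3 days 13 of 15 were at least 2-fold higher, with a median of 3.32, against 15.1% of all genes. At 28 days 6 of the 8 with 20 UMIs were, against 17.6%. Clec10a and Mgl2, C-type lectins, had 4.18 (3.23 to 5.15) and 3.93 (3.18 to 4.67) at 3 days, and Gas6 and Cd38 had -0.04 and -0.03. Beside the choroid plexus the list summed to 953 against 164 CPM at 3 days (2.54, 2.48 to 2.60) and 1064 against 174 CPM at 28 days (2.61, 2.53 to 2.69). At 3 days Gas6, Dab2 and Maf held 1523, 755 and 371 of its 2834 UMIs there. At 28 days they held 720, 399 and 219 of 1434. At each time 8 of the 14 genes with 20 UMIs were at least 2-fold higher. The share of all genes was 22.7% at 3 days and 19.5% at 28 days. Of these 8 beside the choroid plexus, the intervals of Ccl24 at both times and of Clec10a at 28 days included 0. Folr2, a folate receptor, had 4.0 (3.48 to 4.48) and 4.81 (4.10 to 5.47) there, against 3.17 (2.45 to 3.84) and 2.92 (1.08 to 4.21) at the opposite border, while Clec10a and Cd209g had 0 UMIs there at 3 days. In the lesion zone over the opposite side the 15 genes ranged from -1.54 to 4.48 at 3 days, with a median of 1.62, and the 13 with 20 UMIs at 28 days from -0.15 to 5.67, with a median of 1.71. At 28 days Siglec1, a sialic acid receptor, had 5.67 (5.12 to 6.31), from 229 and 28 UMIs, and Wfdc17 had 5.30 (4.73 to 5.96), near the 5.71 of Ms4a7, while Mgl2 had -0.15 (-1.77 to 0.99). In the zone at 3 days Clec10a, Mgl2 and Cd209g each had 1 UMI. All 4 of 4 MHC class II genes were at least 2-fold higher near the opposite border in both sections, against 15.1% and 17.6% of all genes. Their medians were 4.38 and 5.75.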

How the data were processed

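Space Ranger 4.0.1, per the file headers, made the deposited UMI counts per gene and 16 µm bin from the mouse probe set 2.0, without normalization, and the submitters' processing notes name the build mm10. The counts per section were 120615873 UMIs at 3 days and 82422389 at 28 days. The members and gene lists were chosen with earlier results of these data known.

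Bins with at least 100 UMIs were kept. The outer border was the edge of non-tissue areas of at least 400 grid positions that reach the array margin. The lesion zone was made of 64 µm tiles of the injured side whose share of 6 phagocyte genes, averaged over 5 by 5 tiles, exceeded the 99th percentile of the opposite side, in patches of at least 25 tiles. Area sums were divided by the area's total (CPM), and 2 areas were set against each other on the log2 scale after adding 0.5 UMI to each sum, with exact conditional binomial (Clopper-Pearson) intervals at 95%, which cover counting error only. No test was possible, since each group had 1 section. Genes with at least 20 UMIs over both areas were counted. All 8 members were named, with genes of fixed lists and the 10 genes most like the members on each side. Ly6c1 and Ly6c2, fixed for the endothelium and monocyte lists, were not analysed here, and 1 gene fixed for the microglia list is not reported here and was left out of its sums. Of the further lists fixed, pericyte genes stood at 451 against 82.0 CPM and lymphatic endothelium genes at 30.9 against 79.5 CPM near and far from the border on the opposite side at 3 days, where Prox1 held 85 of 110 and 4167 of 4442 UMIs of the latter list and Flt4 was higher near it (1.01, 0.12 to 1.73). Scaling, boundaries, bands, vessel definitions and the leaving out of the zone, choroid plexus and detached pieces were varied. The ratio was tested on simulated counts. The tools were scipy 1.17.1, pandas 2.3.3, matplotlib 3.10.9 and numpy 2.4.6 under Python 3.11.15.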

Additional observations from a re-analysis of the deposited data

Results flagged for a closer look

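Mrc1 differed in opposite directions between the border bands of the 2 sides, with the injured side's band higher at 3 days (log2 ratio 0.89, 0.55 to 1.23) and lower at 28 days (-0.88, -1.30 to -0.43). Each time is 1 section, and the difference between the times was not tested. With the lesion zone left out the values were 0.97 (0.61 to 1.32) and -0.21 (-0.65 to 0.24), and for UMIs per bin 0.80 (0.46 to 1.14) and -0.37 (-0.79 to 0.07).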

How the results depend on the processing

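Leaving out the lesion zone turned Ms4a7 between the border bands of the 2 sides at 28 days from 1.82 to -0.33, and Cd163 over the sides at 3 days from 0.33, whose interval included 0, to -0.01. Between the border bands it also changed the sign of values whose intervals included 0 with and without the zone, those of Cd163 at both times and of Stab1 and the 8 genes summed at 28 days (-0.07 to 0.02). Of the alternatives for the 10 summed results (side, border on each side, smooth muscle and the border bands compared, at both times), 39 moved the log2 ratio beyond its counting interval and 53 did not. Between the bands at 28 days UMIs per bin gave 0.44 for the 8 genes summed. For the side, UMIs per bin gave 1.18 at 3 days and 1.27 at 28 days, bins more than 96 µm from the border 1.57 and 1.19, and leaving out the lesion zone 0.64 and 0.91. At 3 days centring on all genes gave 1.14, leaving out Stab1 1.0 and mirrored columns alone 1.08. For the opposite border at 3 and 28 days, UMIs per bin gave 3.11 and 3.62, leaving out the member with most UMIs 3.93 and 4.62, a near band of 48 µm 4.20 and 4.68 and one of 12 bins 2.28 and 2.40, and counting enclosed spaces as border gave 2.83 at 28 days. For the injured border, UMIs per bin gave 3.04 and 3.15, leaving out the member with most UMIs 4.10 and 3.34, a near band of 12 bins 2.97 and 2.08, enclosed spaces 3.17 and 2.63, and leaving out the lesion zone 4.0 and 3.44. At 3 days a near band of 48 µm gave 3.93 and keeping far bins at the array edge 3.44, and at 28 days leaving out the choroid plexus gave 3.15. For smooth muscle, leaving out the member with most UMIs gave 3.91 and 3.80. At 3 days UMIs per bin gave 3.34 and all bins 3.65, and at 28 days bins of at least 5 UMIs gave 3.70, the opposite side alone 4.0 and leaving out the lesion zone 3.92. Leaving out the zone, the choroid plexus or detached pieces, the 2 alternatives for the zone ratios (its threshold and UMIs per bin) and UMIs per bin for the bands compared were chosen after seeing the data. In the zone over the opposite side UMIs per bin gave 5.05 for Ms4a7 and 0.59 for Mrc1 at 28 days, and the 95th percentile 5.42 and 1.85. The causes were not tested. No paired analysis was possible because each group had 1 section. Low counts limit Lyve1 and Cbr2 at 28 days most.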
